A study of Mus musculus with 5 samples.

Results

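The spliceosome removes introns from pre-mRNA. It is built from small nuclear ribonucleoproteins (snRNPs), each a small nuclear RNA (snRNA) bound by a ring of Sm or LSm proteins and by proteins particular to that snRNP. The U1 snRNP pairs with the 5′ splice site and the U2 snRNP with the branch point, the U4/U6.U5 tri-snRNP then joins, and RNA rearrangements led by the PRP proteins activate the assembly. Several genes for splicing proteins carry alternative exons whose inclusion brings a premature stop codon and sends the mRNA to nonsense-mediated mRNA decay (NMD), the pathway that requires the RNA helicase UPF1.

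The genes described here were the 57 protein-coding genes of the 55573 in the count table whose symbols begin with Snrp, Snrnp, Sf3a or Sf3b and a digit, Prpf and a digit, Lsm and a digit, or U2af. A further 3 rows with such symbols were pseudogenes and were left out. The RNA came from Neuro-2A (N2A) cells, an established mouse neuroblastoma line, grown in DMEM/F-12 with serum and transfected with TransIT-X2 and 60 pmol of siRNA. The 2 siCtl libraries (replicates 1 and 3) received a commercial negative control siRNA and the 3 siUpf1 libraries (replicates 1, 2 and 3) a single siRNA against Upf1, so that effects of UPF1 loss and of that one siRNA on other mRNAs cannot be told apart. The label "core spliceosome" held for 51 of the 57. The other 6 act elsewhere: Lsm1 in the cytoplasmic decay ring, Lsm10 and Lsm11 in the U7 snRNP that processes histone pre-mRNA, and Lsm12, Lsm14a and Lsm14b in cytoplasmic mRNA metabolism.

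Libraries held 20402205 to 27717594 counted reads, of which the 57 genes took 0.650 to 0.712%. Normalised counts, used below, are read counts divided by the library's DESeq2 size factor. Upf1 had 5217 and 5243 normalised counts in the siCtl libraries and 2403, 2496 and 2449 in the siUpf1 libraries, 46.8% of siCtl (log2 fold change −1.10 ± 0.0507 SE, adjusted p = 7.09e-101 by DESeq2). The neuronal markers Tubb3, Stmn2, Hand2 and Elavl3 were abundant, while Nefl, Nefm and Dcx were near 0. The summed neuronal list of 10 genes was 33398 and 33572 normalised counts in siCtl against 37912 to 40064 in siUpf1. The summed astrocyte list (4 genes) was 23.2 to 52.4 and the microglia and blood list (4 genes) 0 to 5.66 over the 5 libraries. The oligodendrocyte list (4 genes, mostly Mbp, with Mog and Olig1 at 0) summed to 462 to 548, and the fibroblast and endothelium list (4 genes, mostly Pecam1) to 287 and 296 in siCtl and 205 to 219 in siUpf1. The part of these markers in the results below was not tested.

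More spliceosome genes were lower than higher in UPF1-knockdown cells, mostly by small amounts. All 57 genes entered the DESeq2 test, and at an adjusted p under 0.05 24 were lower, 10 were higher and 23 were not called. Over all 15191 genes tested 44.9% were called, 22.9% lower and 22% higher, and among the 10552 protein-coding genes averaging 100 normalised counts or more 30% were called lower and 28.2% higher. The spliceosome genes were thus called lower at 42.1% and higher at 17.5%. Their median log2 fold change was −0.10, beside −0.002 for all genes tested and −0.02 for protein-coding genes. With a trend of fold change on transcript length and GC content removed it was −0.0385 beside −0.007 for all genes, with 21 genes lower (36.8%) and 13 higher (22.8%) beside 24.2 and 21.3% of all genes tested. In 28 genes every siUpf1 library was below both siCtl libraries and in 15 every one was above, beside 35.2% and 34.3% of all genes tested. In the fit without siCtl replicate 3, where a single siCtl library remained, the median log2 fold change of the 57 was −0.0786, beside 0.0015 for all genes. The excess of lower over higher calls was smaller without siCtl replicate 3. Without it 12 of 56 genes tested were lower (21.4%) and 9 higher (16.1%), close to the 18.5 and 18.7% of all genes tested in that fit. Leaving out any siUpf1 library left 19 to 22 lower (33.9 to 39.3%) and 9 higher (16.1%). The shares of all genes tested in those fits were 20.2 to 22.1% lower and 20.4 to 20.8% higher. Without siCtl replicate 1, where again a single siCtl library remained, the median of the 57 was −0.136, beside −0.0044 for all genes. In none of these fits was a gene called in the opposite direction.

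The sizes were modest. The median absolute log2 fold change was 0.17, against 0.25 for protein-coding genes averaging 100 normalised counts or more, and 54.4% of the 57 lay within 0.2 of no change against 41.8% of those genes. In 9 genes the absolute log2 fold change was at least 0.5 and in 1, Snrpa1, at least 1. Without Snrpa1 and Snrpb, the lowest and the highest called, 23 of 55 were lower and 9 higher. Of the 6 that act outside splicing 2 were lower and 2 higher (33.3% each), and of the 51 others 22 were lower (43.1%) and 8 higher (15.7%).

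**Figure D1:**
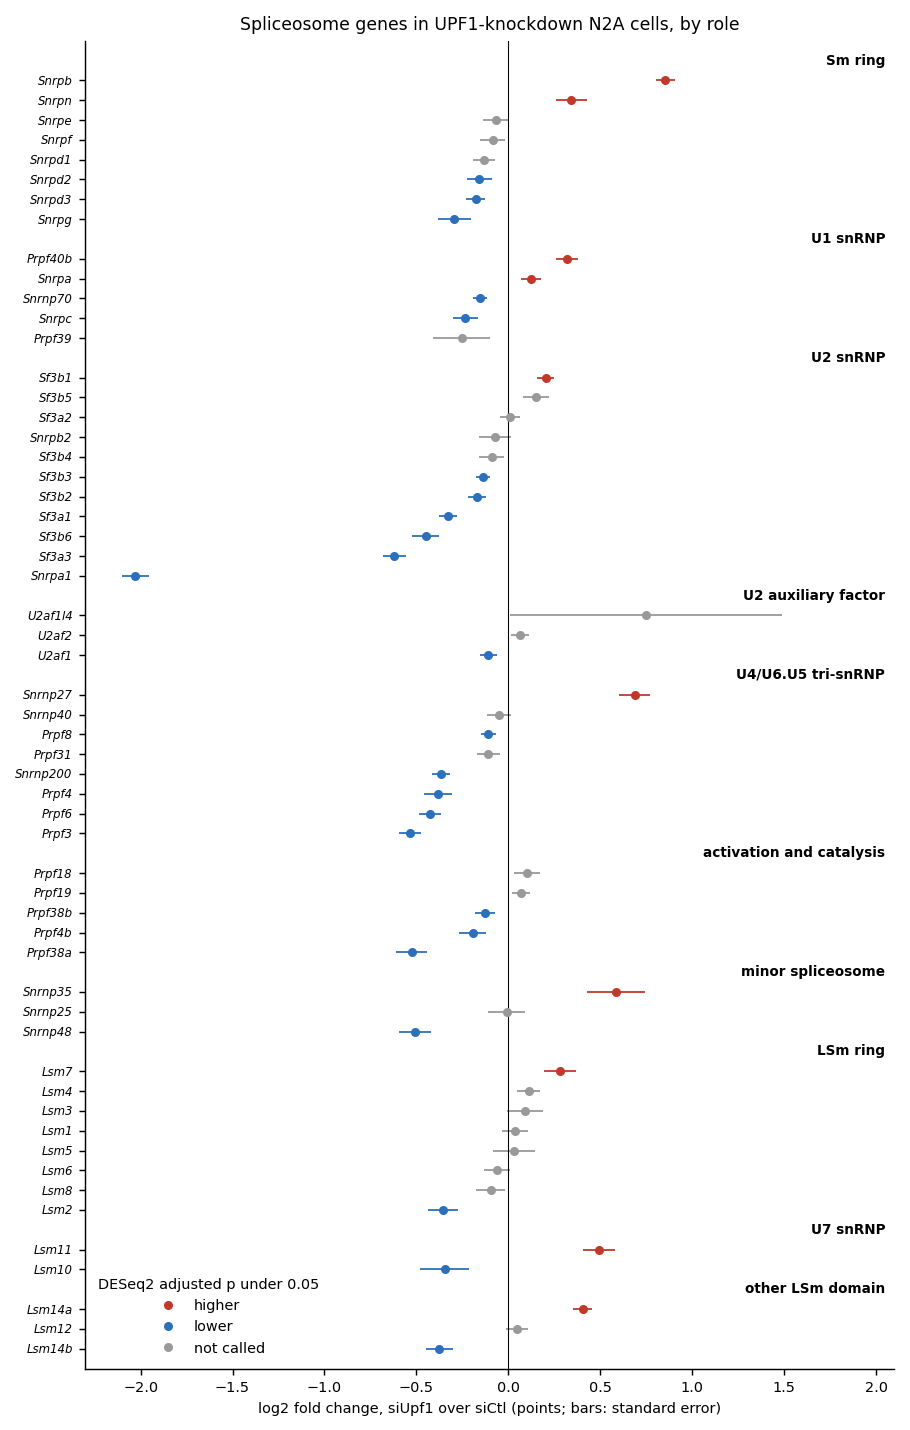
Log2 fold change of siUpf1 over siCtl (x axis) for 56 of the 57 genes (y axis), grouped by role, with points coloured by the DESeq2 call and bars showing the standard error. Snrpa1 stands apart at −2.03, Snrpb is the highest called gene at 0.85, and most of the others lie within 0.5 of 0.

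Snrpa1 (chr7:66059003-66074587 on GRCm38, plus strand) encodes the A′ protein of U2, which with the B″ protein (Snrpb2) binds a stem-loop of U2 snRNA. It had 3149 and 3312 normalised counts in siCtl and 802, 848 and 730 in siUpf1, so that every siUpf1 library was under all siCtl values and the group mean was 24.6% of siCtl. The log2 fold change was −2.03 ± 0.0728 (SE, adjusted p = 5.63e-168 by DESeq2, edgeR quasi-likelihood adjusted p = 9.03e-13). Among 12730 protein-coding genes tested Snrpa1 ranked 24 from the lowest log2 fold change, a larger fall than that of the siRNA's target Upf1. Its partner Snrpb2 had 1137 and 1357 normalised counts in siCtl and 1265, 1160 and 1135 in siUpf1, overlapping ranges with a log2 fold change of −0.07 ± 0.0880 (SE, adjusted p = 0.544 by DESeq2).

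The siRNA given to the siUpf1 cells was compared with the 3′ UTRs of the 57 genes because an siRNA can lower mRNAs that pair with its seed, bases 2 to 8 of either strand. The label gives the strand that equals Upf1 mRNA, where it lies in the coding part across an exon junction; its complement is the strand that pairs with Upf1. Both are shown with the seed in capitals.
Upf1 siRNA, sense strand: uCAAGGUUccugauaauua
Upf1 siRNA, antisense strand: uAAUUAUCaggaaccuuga

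The 207-nt 3′ UTR of Snrpa1 held 3 sites complementary to these seeds, written here as mRNA-strand DNA with the 7 complementary bases in capitals, 2 for the sense strand and 1 for the antisense strand.
Snrpa1 site for the sense strand, chr7:66074431-66074456: agcatggagtaacAACCTTGcttgta
Snrpa1 site for the antisense strand, chr7:66074491-66074516: cagaacgactggtGATAATTttttaa
Snrpa1 second site for the sense strand, chr7:66074508-66074533: attttttaataggAACCTTGaaataa
The last of these was part of an unbroken run of 11 complementary bases. Of the 12708 protein-coding genes tested with a 3′ UTR sequence, 1.69% had matches to both seeds, 0.708% had at least 3 matches and 0.645% had a run of at least 11 bases. Snrpa1 was the sole one of the 57 in each of these classes, and in each class it had the lowest log2 fold change of all protein-coding genes (215, 90 and 82 genes). Those classes as a whole had median log2 fold changes of −0.05, −0.10 and 0.02. The limits of these classes equal Snrpa1's own values, so its place in them is a description and not a test. Pairing of the siRNA with Snrpa1 mRNA was not tested.

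Across the 57 genes, 14 (24.6%, against 15.7% of protein-coding genes tested) had a 3′ UTR match to either seed, searched as AACCTTG for the sense and GATAATT for the antisense strand on the mRNA strand alone. Of these 14, 8 were lower and 2 higher with a median of −0.29, and of the 43 without a match 16 were lower and 8 higher with a median of −0.07. Over all protein-coding genes tested, 32.9% of those with either match were lower and 25.1% higher (median −0.05). Without a match 25.5% were lower and 24.4% higher. Genes with a match had longer 3′ UTRs, with medians of 960 nt against 363 nt without one among the 57. Over protein-coding genes tested the medians were 2366.5 and 819 nt, and the part of 3′ UTR length was not tested. A sense-strand match was found in 7 genes, Snrpa1, Sf3a3, Sf3a1, Prpf4, Prpf31, Lsm14b and Lsm6. All 7 had negative log2 fold changes, −0.06 to −2.03, as had 36 of the 57, and 5 were called lower and none higher. Without Snrpa1, which matched both seeds, the other 6 ranged from −0.06 to −0.62 with a median of −0.35. In all protein-coding genes with a sense-strand match 37.3% were lower and 21.8% higher. The 8 with an antisense-strand match went both ways, 4 lower and 2 higher, where all 970 protein-coding genes with that match were lower at 27.4% and higher at 28.1%. The sites of Sf3a3, the second lowest gene, and of Snrnp27, the second highest called, are shown to set a gene that fell beside one that rose.
Sf3a3 site for the sense strand, chr4:124732339-124732364: tctaccttgtagaAACCTTGcagatt
Snrnp27 site for the antisense strand, chr6:86675155-86675180, minus strand: aagagtctccctgGATAATTtctttt

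**Figure D2:**
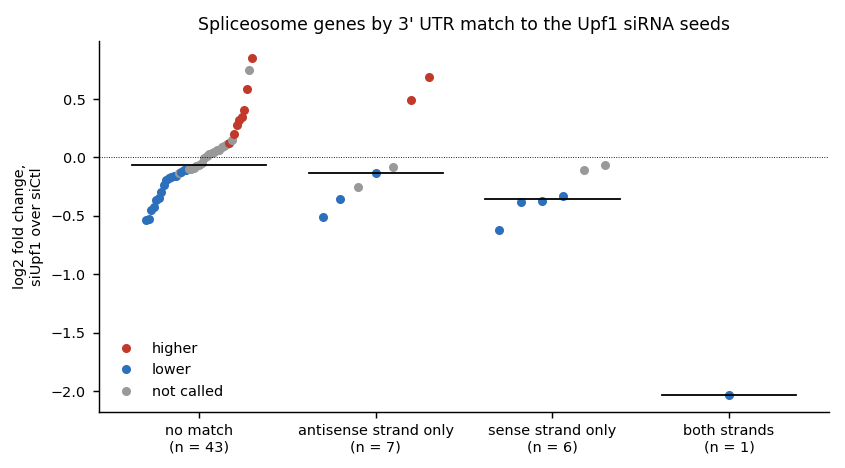
Log2 fold change (y axis) of the 57 genes by whether the 3′ UTR matched the seed of neither, the antisense, the sense or both strands of the Upf1 siRNA (x axis). Points are genes coloured by call and lines are medians, which are −0.07, −0.14, −0.35 and −2.03 from left to right.

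The other proteins of the U2 snRNP form the SF3A and SF3B complexes, which hold U2 to the branch point. Together with Snrpa1 and Snrpb2 they gave 11 genes, of which 6 were lower (54.5%) and 1 higher (9.09%), with a median of −0.14. Of protein-coding genes averaging 100 normalised counts or more 30% were lower and 28.2% higher. Sf3a3 (chr4:124714776-124732460), an SF3A subunit, had 2830 and 3074 normalised counts in siCtl and 1925, 1988 and 1859 in siUpf1. The groups did not overlap and siUpf1 was 65.2% of siCtl (log2 fold change −0.62 ± 0.0626 SE, adjusted p = 1.01e-21 by DESeq2). Sf3a1 was also lower at 79.7% of siCtl (log2 fold change −0.33), whereas the third subunit, Sf3a2, had 3715 and 3884 against 3746, 4040 and 3701 normalised counts with overlapping groups (DESeq2 adjusted p = 0.912). The 3 SF3A mRNAs therefore changed by unequal amounts. In SF3B, Sf3b6, the subunit that lies next to the branch point adenosine, was at 73.3% of siCtl (log2 fold change −0.45), and Sf3b2 and Sf3b3 were lower at 88.9 and 91.0%. Sf3b1, the largest SF3B subunit and the target of splicing inhibitors, was the U2 gene called higher, with 8194 and 8535 normalised counts in siCtl and 9969, 9225 and 9696 in siUpf1 (log2 fold change 0.20 ± 0.0463 SE, adjusted p = 4.72e-05 by DESeq2). Sf3b4 and Sf3b5 were not called, at 94.0 and 111% of siCtl, and 63.1% of the 100-base stretches of Sf3b4 are found in no other gene. Sf3b2 and Sf3b3 were not called without siCtl replicate 3.

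U2af2 and U2af1, the large and small subunits that read the polypyrimidine tract and the 3′ splice site AG, changed little. U2af1 had 4434 and 4519 normalised counts in siCtl and 4132, 4178 and 4149 in siUpf1 (log2 fold change −0.11 ± 0.0475 SE, adjusted p = 0.0496 by DESeq2), and this call was lost when any 1 library was left out. In U2af1 60.8% of its 100-base stretches are found in no other gene. U2af2 was not called, at 105% of siCtl. The U2af1 paralog U2af1l4 had 7.34 and 7.55 normalised counts in siCtl and 8.89, 17.6 and 11.6 in siUpf1 and was not called (log2 fold change 0.75 ± 0.738 SE, adjusted p = 0.442 by DESeq2). Of its 100-base stretches 53.5% are found in no other gene.

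The Sm ring surrounds the snRNAs of U1, U2, U4 and U5. Of its 8 genes 2 were higher (25%) and 3 lower (37.5%), with a median of −0.11. These shares were near the 28.2% higher and 30% lower of protein-coding genes averaging 100 normalised counts or more. The risers were Snrpb and Snrpn, which encode the interchangeable SmB/B′ and SmN, the latter an imprinted gene used mostly in neurons. Snrpb (chr2:130171414-130179403, minus strand) had 2658 and 2867 normalised counts in siCtl and 4960, 5034 and 4996 in siUpf1, all siUpf1 libraries far above both siCtl. The group mean was 181% of siCtl (log2 fold change 0.85 ± 0.0521 SE, adjusted p = 3.46e-58 by DESeq2, edgeR quasi-likelihood adjusted p = 6.27e-10). Snrpn had 807 and 799 against 1017, 1071 and 972 normalised counts, again without overlap (log2 fold change 0.34 ± 0.0851 SE, adjusted p = 2.23e-04 by DESeq2). Snrpn shares exons with Snurf, and 83.3% of its 100-base stretches are found in no other gene. Snrpg, which encodes SmG, was the lowest of the ring, with 864 and 874 normalised counts in siCtl and 694, 747 and 689 in siUpf1 (log2 fold change −0.29 ± 0.0900 SE, adjusted p = 0.00332 by DESeq2), and it was not called without siCtl replicate 1 or without siCtl replicate 3. Snrpd3 and Snrpd2 were lower at 88.5 and 89.7% of siCtl, where Snrpd2 lost its call when any 1 library was left out and Snrpd3 without siCtl replicate 3. Snrpd1, Snrpf and Snrpe were not called, at 91.3 to 95.6% of siCtl. Snrpf and Snrpg have 83.9 and 86.2% of their 100-base stretches found in no other gene.

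Snrpb was also a gene whose annotation holds an NMD isoform. GENCODE lists Snrpb-203 with an extra exon of 124 nt, chr2:130176629-130176752, that is absent from the principal coding isoform, and its stop codon lies in that exon, the third of 8. The stop codon stands 596 bases before the last exon junction and is shown in capitals on the mRNA strand.
Snrpb-203 stop codon, chr2:130176683-130176709, minus strand: tttgtaaagctgTAGcctacagggctc
The counts were per gene, so how much of the rise in Snrpb came from this isoform was not tested. An NMD isoform was annotated for 20 of the 57 genes (35.1%, against 28.5% of protein-coding genes tested). Of those 20, 6 were higher and 6 lower (median −0.02), and of the 37 without one 4 were higher and 18 lower (median −0.11). Protein-coding genes with and without such an isoform were called higher at 23.1 and 25.1% and lower at 29.2 and 25.6%. The 6 higher genes with one were Snrpb, Snrpa, Prpf40b, Sf3b1, Lsm11 and Lsm14a. Snrnp27 and Snrnp35, the next highest called after Snrpb, had none.

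**Figure D3:**
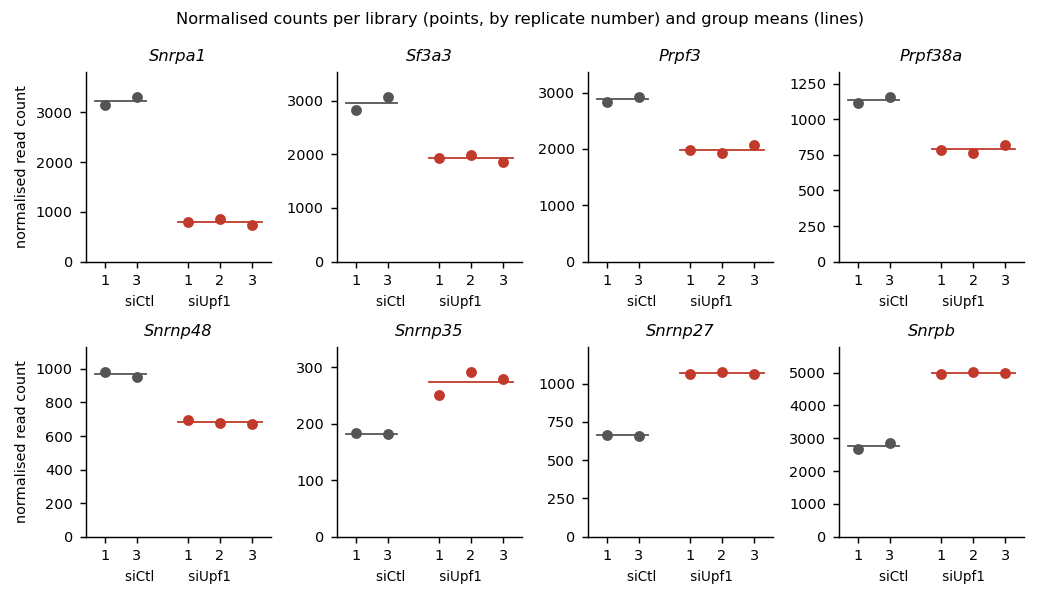
Normalised read counts (y axis, from 0) in each siCtl and siUpf1 library (x axis, replicate numbers) for the 8 genes that were called with an absolute log2 fold change of at least 0.5. Points are libraries and lines are group means, with Snrpa1 falling from 3149 and 3312 to between 730 and 848. In each of the 8 panels the siUpf1 libraries lie wholly to one side of the siCtl libraries. Of all genes tested 34.3% lay wholly above and 35.2% wholly below siCtl. The 8 genes were chosen by call and fold change, so their separation is a description and not a test.

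In the U1 snRNP and its partners, 6 genes, 2 were lower and 2 higher (33.3% each, median −0.13). These shares were near the 30% lower and 28.2% higher of protein-coding genes averaging 100 normalised counts or more. Snrpc (U1-C) was lower at 85.1% of siCtl and Snrnp70 (U1-70K), which bridges U1 to other splicing factors, at 89.9%, the latter with 13564 and 14055 normalised counts in siCtl and 12371, 12595 and 12271 in siUpf1. Both calls were lost without siCtl replicate 3. Prpf40b, a U1-associated WW-domain protein, was higher, with 1891 and 1873 against 2385, 2303 and 2342 normalised counts (log2 fold change 0.32 ± 0.0597 SE, adjusted p = 6.17e-07 by DESeq2). Snrpa (U1-A) was called higher at 109% of siCtl, a call lost when any 1 library was left out. Prpf39, a U1 partner that helps in 5′ splice site use, had 3090 and 3242 normalised counts in siCtl and 3099, 2447 and 2418 in siUpf1. Here siUpf1 replicate 1 lay within the siCtl range and the others far below it (log2 fold change −0.25 ± 0.157 SE, adjusted p = 0.187 by DESeq2). Without siUpf1 replicate 1 the log2 fold change of Prpf39 was −0.38 (DESeq2 adjusted p = 3.27e-08).

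The U4/U6.U5 tri-snRNP had 8 genes, of which 5 were lower (62.5%) and 1 higher (12.5%), with a median of −0.24. Of protein-coding genes averaging 100 normalised counts or more 30% were lower and 28.2% higher. Prpf3 (chr3:95830124-95855885), a U4/U6 protein, had 2837 and 2927 normalised counts in siCtl and 1974, 1923 and 2066 in siUpf1 (log2 fold change −0.53 ± 0.0598 SE, adjusted p = 6.82e-18 by DESeq2). Its U4/U6 partner Prpf4 was at 76.8% of siCtl and Prpf6, which bridges U5 to U4/U6, at 74.6%. Snrnp200, the helicase that unwinds U4 from U6, had 8689 and 8583 against 6375, 6747 and 7001 normalised counts (log2 fold change −0.36 ± 0.0483 SE, adjusted p = 4.87e-13 by DESeq2). These falls left the groups apart in every case. Prpf8, the scaffold of the catalytic centre, was lower by a small amount (92.8% of siCtl, DESeq2 adjusted p = 0.0169), a call lost without siCtl replicate 1, siCtl replicate 3 or siUpf1 replicate 1. Prpf31 and Snrnp40 were not called, at 92.9 and 96.6%. The exception was Snrnp27 (chr6:86675151-86684522), a small tri-snRNP protein, with 668 and 658 normalised counts in siCtl and 1062, 1079 and 1062 in siUpf1, 161% of siCtl (log2 fold change 0.69 ± 0.0844 SE, adjusted p = 5.03e-15 by DESeq2).

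Of 5 genes for activation and catalysis 3 were lower (60%) and none higher (median −0.13). Of protein-coding genes averaging 100 normalised counts or more 30% were lower and 28.2% higher. Prpf38a, a B complex protein, had 1113 and 1159 normalised counts in siCtl and 781, 763 and 822 in siUpf1 (log2 fold change −0.53 ± 0.0835 SE, adjusted p = 2.45e-09 by DESeq2). Its paralog Prpf38b and the splicing kinase gene Prpf4b were lower at 91.4 and 87.4% of siCtl, calls that were each lost under 4 of the 5 omissions of a library. Prpf19, the ubiquitin ligase of the Prp19 complex, and Prpf18, a second-step factor, were not called at 105 and 107%, although every siUpf1 library was above both siCtl libraries.

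The minor spliceosome removes a rare class of introns, and its U11/U12 proteins moved apart. Snrnp48 had 984 and 954 normalised counts in siCtl and 693, 679 and 673 in siUpf1 (log2 fold change −0.51 ± 0.0873 SE, adjusted p = 4.20e-08 by DESeq2). Snrnp35 had 183 and 181 in siCtl and 251, 292 and 280 in siUpf1 (log2 fold change 0.59 ± 0.159 SE, adjusted p = 7.62e-04 by DESeq2). Snrnp25 had overlapping groups, at 99.7% of siCtl.

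The LSm rings bind U6 snRNA in the nucleus (LSm2 to LSm8) and deadenylated mRNA in the cytoplasm (with LSm1 in place of LSm8). Of 8 genes 6 were not called (75%, against 41.8% of protein-coding genes averaging 100 normalised counts or more), and the median log2 fold change was 0.03. Lsm2 was lower, with 1108 and 1132 normalised counts in siCtl and 865, 920 and 850 in siUpf1 (log2 fold change −0.35 ± 0.0818 SE, adjusted p = 6.60e-05 by DESeq2). Lsm7 was higher, with 753 and 817 against 930, 999 and 939 (log2 fold change 0.28 ± 0.0875 SE, adjusted p = 0.00383 by DESeq2), and was not called without siCtl replicate 1. The ring-defining Lsm8 and Lsm1 were at 93.8 and 103% of siCtl and neither was called, nor were Lsm3, Lsm4, Lsm5 and Lsm6 (96.0 to 108%). Lsm3, Lsm5 and Lsm7 have pseudogenes that share part of their sequence, with 88.2, 78.5 and 81.4% of 100-base stretches found in no other gene.

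The U7 snRNP swaps 2 Sm proteins for Lsm10 and Lsm11, and these moved in opposite directions. Lsm11 had 1003 and 883 normalised counts in siCtl and 1246, 1329 and 1408 in siUpf1 (log2 fold change 0.49 ± 0.0854 SE, adjusted p = 4.75e-08 by DESeq2). Lsm10 had 379 and 357 in siCtl and 273, 307 and 290 in siUpf1 (log2 fold change −0.35 ± 0.134 SE, adjusted p = 0.0243 by DESeq2), a call that was lost under 4 of the 5 omissions of a library. The P-body paralogs Lsm14a and Lsm14b were likewise opposed, with 2921 and 2903 rising to 3897, 3829 and 3838 normalised counts for Lsm14a (log2 fold change 0.40 ± 0.0508 SE, adjusted p = 1.91e-14 by DESeq2). Lsm14b went from 1741 and 1683 to 1383, 1333 and 1243 (log2 fold change −0.38 ± 0.0724 SE, adjusted p = 1.18e-06 by DESeq2). Lsm12 was not called, at 103% of siCtl.

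Ratios within each library set partner mRNAs beside each other without library scaling. Levels were taken per kilobase of the union of a gene's annotated exons, so the ratio between genes depends on the length used but its change does not. Snrpa1 over Snrpb2 was 2.49 and 2.20 in siCtl and 0.571, 0.659 and 0.579 in siUpf1, a change of 0.257-fold. With the longest coding transcript as length the means were 4.30 and 1.11, so Snrpa1 was above Snrpb2 in siCtl by both lengths and on either side of it in siUpf1. Snrpb over Snrpd1, both ring subunits, went from 1.14 and 1.17 to 2.26, 2.25 and 2.36 (1.98-fold). Snrpb over Snrpn rose 1.43-fold, and the Snrpn share of the pair was 21.7 and 20.3% in siCtl and 15.8, 16.3 and 15.1% in siUpf1. Sf3a3 over Sf3a2 changed 0.647-fold, Prpf3 over Prpf31 0.744-fold, Snrnp27 over Snrnp40 1.67-fold and Lsm11 over Lsm10 1.79-fold. For each of these pairs all siUpf1 ratios lay to one side of both siCtl ratios. So did those of Lsm8 over Lsm1, neither gene called, at 0.590 and 0.644 in siCtl and 0.565, 0.568 and 0.559 in siUpf1. Over all genes tested singly, 34.3% had every siUpf1 library above both siCtl libraries and 35.2% below. Such separation therefore does not mark these pairs out. With 2 against 3 libraries an exact permutation test cannot go below p = 0.1. Within the 7-gene Sm ring without Snrpn, the highest level per length was 3.24 times the lowest in siCtl (Snrpf over Snrpg) and 5.60 times in siUpf1 (Snrpb over Snrpg). With the longest coding transcript as length the highest in siCtl was Snrpd1 (314, against 194 for Snrpf and 89.2 for Snrpg). In siUpf1 Snrpb (495) was again the highest and Snrpg (77.3) the lowest. The highest gene in siCtl thus depended on the length used.

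**Figure D4:**
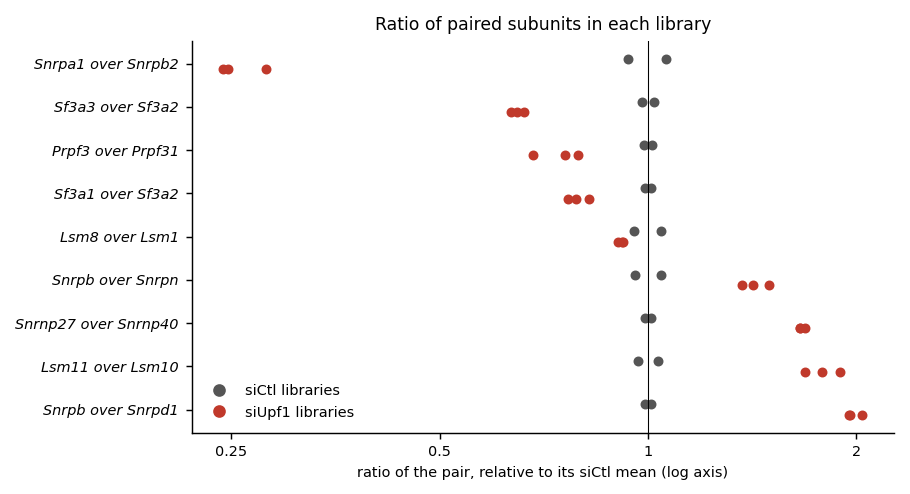
Ratio of paired subunits (y axis) in each library, divided by the pair's siCtl mean (x axis, log scale). Points are libraries, grey for siCtl and red for siUpf1. Snrpa1 over Snrpb2 falls to 0.257-fold and Snrpb over Snrpd1 rises to 1.98-fold, while Lsm8 over Lsm1 changes least, at 0.914-fold.

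The rest of the splicing machinery was read from 5 lists of 75 further genes found in the table, of which 74 were tested. Of these 38 were lower and 6 higher (median −0.20), and without siCtl replicate 3 25 were lower and 5 higher. With all 5 libraries 51.4% of the 74 were lower and 8.11% higher. Over protein-coding genes averaging 100 normalised counts or more 30% were lower and 28.2% higher, and over all genes tested 22.9 and 22%. The Prp19 complex and catalytic factors, which remodel and stabilise the active site, had 17 of 21 lower (81.0%) and 1 higher (median −0.34). Bcas2, a Prp19 complex subunit, had 2096 and 2104 normalised counts in siCtl and 1237, 1293 and 1224 in siUpf1 (log2 fold change −0.75 ± 0.0666 SE, adjusted p = 9.00e-28 by DESeq2), and Rbm22, which contacts the U6 snRNA, was the one called higher (log2 fold change 0.22), though not without siCtl replicate 3 (adjusted p = 0.0896 by DESeq2). Their namesake Prpf19, among the 57, was not called. Of 15 tri-snRNP and B complex genes 7 were lower (46.7%) and 1 higher (6.67%). They ranged from the U5 protein gene Cd2bp2 (log2 fold change −0.61, DESeq2 adjusted p = 7.29e-22) to Txnl4a, another U5 protein gene (0.44, DESeq2 adjusted p = 4.73e-09).

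Of 16 U1 and U2 partners 7 were lower (43.75%) and 2 higher (12.5%). Smndc1, an SMN-related splicing factor, was the lowest (log2 fold change −0.57, DESeq2 adjusted p = 2.83e-20). Rbm17, a U2-linked factor, was the highest, with 2530 and 2541 normalised counts in siCtl and 4053, 4161 and 4052 in siUpf1 (log2 fold change 0.69 ± 0.0516 SE, adjusted p = 6.51e-39 by DESeq2). Of 6 minor spliceosome genes tested 2 were lower (33.3%), Scnm1 (−0.40) and Zmat5 (−0.29), and none higher. Scnm1 was not called without siCtl replicate 3, and Zmat5 lost its call under 4 of the 5 omissions of a library. In snRNP assembly, the pathway that loads Sm proteins onto snRNA, 5 of 16 were lower (31.25%) and 2 higher (12.5%). The shares lower in the minor spliceosome and snRNP assembly lists were near the 30% of protein-coding genes averaging 100 normalised counts or more. Gemin5, which recognises the snRNA, fell (log2 fold change −0.49, DESeq2 adjusted p = 7.57e-22). Clns1a, which holds Sm proteins before loading, rose, with 1724 and 1752 normalised counts in siCtl and 2666, 2632 and 2552 in siUpf1 (log2 fold change 0.59 ± 0.0597 SE, adjusted p = 1.16e-21 by DESeq2).

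**Figure D5:**
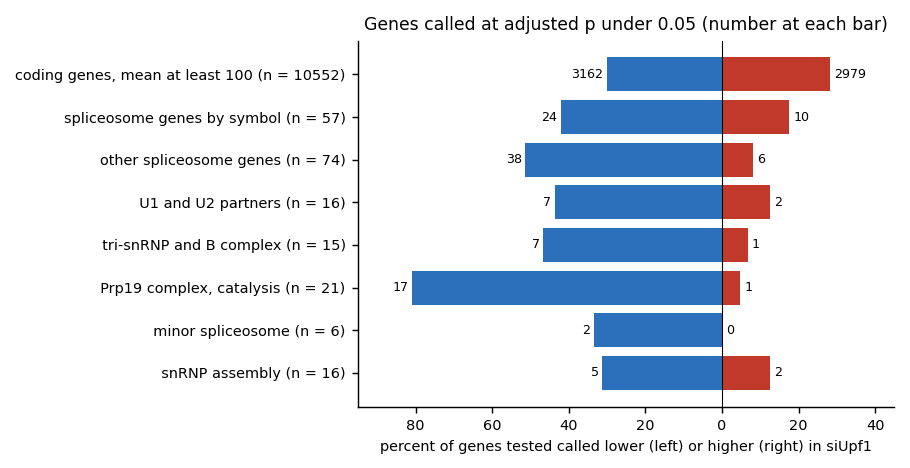
Percent of genes tested that were called lower (left, blue) or higher (right, red) in siUpf1 (x axis) for protein-coding genes averaging 100 normalised counts or more, the 57 spliceosome genes and 5 lists of further splicing genes (y axis); the number at each bar is the gene count. The Prp19 complex list has the longest bar to the left, 17 of 21 genes.

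The mRNAs of the 57 genes were short, with a median length of 2061 nt against 3006 nt in protein-coding genes tested. The correlation of log2 fold change with transcript length was −0.13 (Spearman) over the 57 genes and 0.17 over protein-coding genes, as a description across genes measured in the same libraries. In each siUpf1 library the median log2 difference of the 57 genes from the siCtl mean was below 0, at −0.07, −0.05 and −0.13. The siCtl libraries themselves were at −0.02 (replicate 1) and 0.02 (replicate 3). In bulk RNA, fewer copies per cell and fewer cells with the mRNA cannot be told apart.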

How the data were processed

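RNA-seq was made from poly(A) RNA of N2A cells with a stranded kit. Per the labels and methods, the authors mapped reads with STAR 2.7.0f to GRCm38.p6 and counted those on the reverse strand of exons with featureCounts (Subread 1.6.4); the deposited values are raw counts per gene, with no replicates pooled. Reads shared with pseudogenes make a gene uncertain, so the share of each gene's 100-base stretches found in no other gene is given where under 90%.

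All genes were tested with DESeq2 1.42.0 (R 4.3.3; Wald test, group as the one term, Benjamini-Hochberg over all genes tested). Alternatives were edgeR 4.0.16, other size factors and filters, a replicate block, a length and GC trend, and omission of each library. Positions, isoforms and 3′ UTRs came from GENCODE M21 on GRCm38. One of the 57 genes is counted but not reported singly here. The genes and lists were chosen with earlier results of these data known. Named genes were those called with an absolute log2 fold change of at least 0.5 and a mean of at least 100 normalised counts, the highest and lowest of each role, Upf1, and the highest and lowest called gene of each further list, with others named by percentage or for their sequence or pairing. Labels do not say that replicates were separate cultures, so p-values measure the spread between these libraries.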

Additional observations from a re-analysis of the deposited data

How the results depend on the processing

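Under the fit with the replicate number as a block, 6 of 56 spliceosome genes tested were called higher (10.7%) and 12 lower (21.4%). Over the 12606 genes tested in that fit 1957 were higher (15.5%) and 1962 lower (15.6%), and 24 further splicing genes were lower. Samples with the same number did not deviate together (correlations of −0.09 and −0.07 over 11898 genes). With 2 siCtl libraries these correlations are not independent of each other, so whether the numbers pair the libraries cannot be told. With single libraries left out, spliceosome genes called lower were 12 to 22 and further splicing genes called lower 25 to 39. Removing a trend on length and GC content moved the median of the 57 to −0.0385. The Snrpa1 over Snrpb2 level per length was 4.30 in siCtl and 1.11 in siUpf1 with the longest coding transcript. edgeR called 11 spliceosome genes higher (19.3%) and 26 lower (45.6%), adding Snrpd1, Prpf39 and Sf3b5 and losing none. Of all genes tested it called 27.5% higher and 27.1% lower. Other counts stayed within 1.5 times. Among 427 further values of 31 named genes none reversed, 34 lost and 3 gained a call, and 3 moved by more than the replicate spread. The cause of these changes was not tested. With 20402205 to 27717594 reads per library, depth most limits U2af1l4, the one of the 57 with a mean under 100 normalised counts.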
